A study of Mus musculus with 12 samples.

Results

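Glutamate and GABA receptor subunits were followed in cultured OPCs of the mouse, the glial progenitors from which myelin-forming oligodendrocytes arise. Members were the protein-coding genes with an Ensembl symbol of the Gria, Grik, Grid, Grin, Grm, Gabra, Gabrb, Gabrd, Gabre, Gabrg, Gabrr or Gabbr series, which gave 45 of the 55536 genes counted. They comprise 26 glutamate receptor genes, namely 4 for AMPA, 5 for kainate, 2 for delta, 7 for NMDA and 8 for metabotropic receptors, and 19 GABA receptor genes, 17 for GABA-A and 2 for GABA-B receptors. The rule uses symbols alone, although the gene family was taken up with earlier results of these data known.

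AMPA, kainate and NMDA receptors are cation channels assembled from subunits and opened by glutamate, whereas metabotropic glutamate receptors signal through G proteins. GABA-A receptors are chloride channels opened by GABA, and GABA-B receptors are G protein-coupled pairs of both Gabbr products. OPCs carry functional AMPA and GABA-A receptors and are known to receive synaptic input from neurons. The subunits present set a channel's calcium permeability and kinetics. The edited Gria2 product, for example, keeps AMPA receptors nearly impermeable to calcium.

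The OPCs came from brains of pups aged P4 to P6, several brains pooled per culture, taken by the Sox10-GFP reporter (per the study's methods a Sox10:Cre line crossed with an RCE:loxP EGFP reporter, which marks the whole oligodendrocyte lineage) or by CD140a on magnetic beads. The labels do not say which of these was used for which library. All cultures were grown with PDGFaa and bFGF and were left untreated (Ctr), treated with 1 µM of the synthetic glucocorticoid dexamethasone (Dexa) or treated with IFN-γ, an inflammatory cytokine, at 100 ng/ml (IFNg), the treatments for 48 h. Each group has 4 replicates from different litters. The replicate number is called the litter here, since libraries with the same number deviated together. All labels carry the mouse model EAE, although the protocol describes cultures from pups and no immunisation. The comparisons ask which receptor genes respond to an inflammatory cytokine and to a glucocorticoid.

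The 11 complete libraries held 19209063 to 52074652 reads in genes, of which the members took 0.105% to 0.230%. The table of Dexa replicate 3 lists only 33.7% of the transcripts and holds 12 members whole, so Dexa had 3 libraries in the tests. The label OPC was checked against markers. All 12 OPC markers passed the filter on low counts, and their summed level was 5809 to 13788 normalised CPM in Ctr (counts scaled to a common library size). Of 15 neuronal markers 11 passed, with a summed level of 1167 to 1743 CPM in Ctr, to which Map2 gave a mean of 1131 CPM. The other 4 (Slc17a7, Slc17a6, Stmn2 and Gad2) had at most 10 reads in any complete library. Of 10 microglial markers 7 did not pass the filter. The summed level of 8 astrocyte markers was 571 to 1526 CPM in Ctr, 1176 to 1975 in Dexa and 1063 to 1590 in IFNg.

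AMPA receptor transcripts led the untreated cells. Levels between genes are given as TPM, which corrects for transcript length. Gria2 had the highest mean level of all members, 75.7 ± 26.5 TPM (mean ± SD, n = 4 Ctr libraries), with 42.3, 70.4, 105.6 and 84.6 TPM in litters 1 to 4. In litter 1 the metabotropic Grm5 was higher, at 44.9 TPM. Gria2 supplied 70.0% to 73.0% of the summed AMPA subunit TPM in Ctr. Gria4 followed in its class at 18.0 ± 6.77 TPM and Gria3 at 11.5 ± 3.64 TPM. Gria1, a major AMPA subunit of cortical and hippocampal neurons, stood at 0.174 ± 0.0751 TPM, 0.0783% to 0.336% of the Gria2 level.

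Each other class also had one or a few leading subunits. Grik3 led the kainate receptors at 15.2 ± 6.17 TPM, ahead of Grik2, Grik5, Grik4 and Grik1 at 2.54 to 7.69 TPM. Grid1 of the delta receptors, which glutamate does not open, had 7.59 TPM. Grin3a, whose product lowers the calcium permeability of NMDA receptors, took 77.5% to 87.7% of the NMDA subunit TPM in Ctr, at 17.4 ± 5.54 TPM. Grin1, the subunit that every NMDA receptor needs, had 2.18 ± 0.894 TPM, and Grin2a, Grin2b, Grin2d and Grin3b were each under 0.1 TPM. Grm5, a receptor coupled to calcium release, had 28.7 ± 12.8 TPM and Grm3 5.40 ± 3.46 TPM, while Grm2, Grm4, Grm6, Grm7 and Grm8 were under 0.1 TPM.

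The GABA-A receptor genes were led by Gabrg1 at 11.5 ± 1.13 TPM. Alpha subunits, which shape the GABA binding site, were lower, with Gabra3 at 2.02 and Gabra2 at 1.61 TPM. Gabbr1 had 7.44 to 12.9 TPM over the Ctr libraries and its partner Gabbr2 1.56 to 2.62 TPM. In all, 8 members had a mean of at least 10 TPM, 13 had 1 to 10, 8 had 0.1 to 1 and 16 were lower. Neighbours in this order did not separate: none of the 20 neighbouring pairs among the 21 members at 1 TPM or more had Ctr values that did not overlap.

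**Figure D1:**
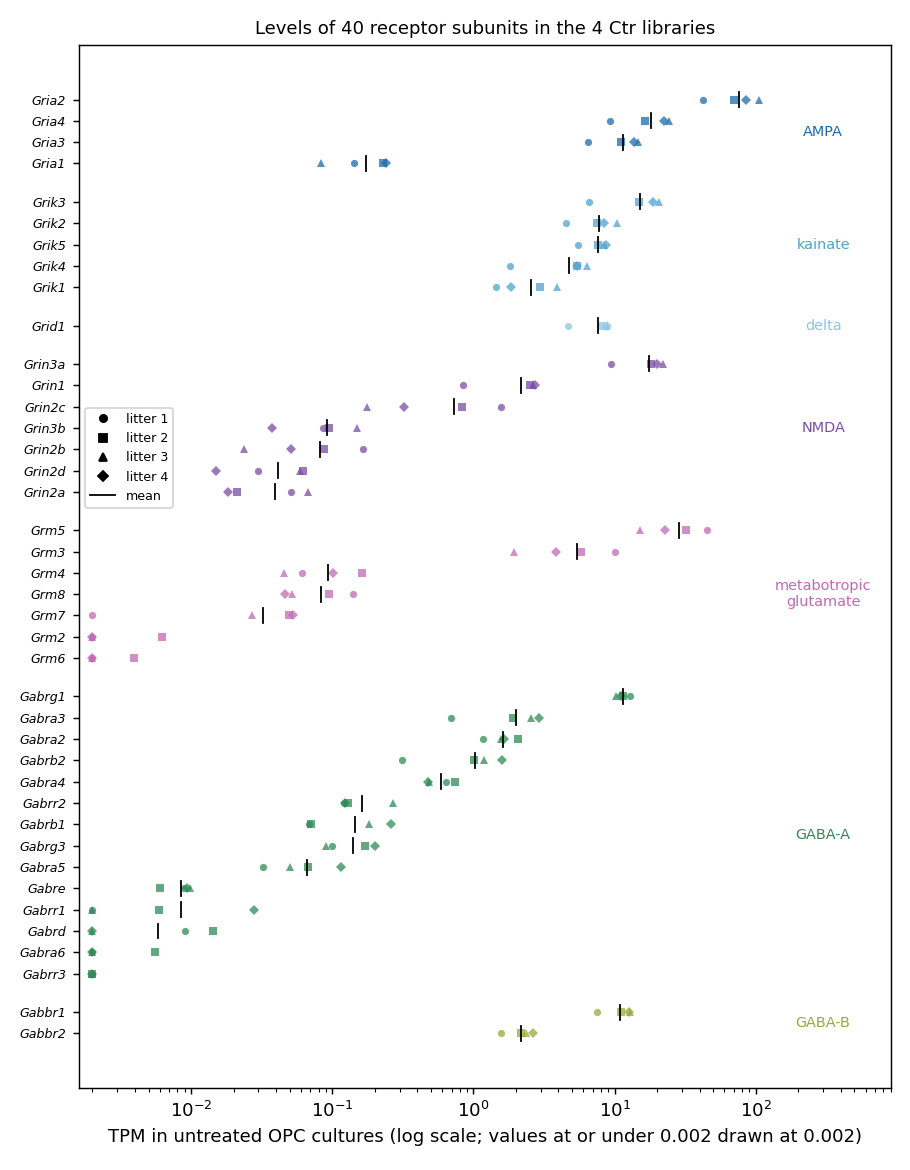
TPM of 40 members in the 4 Ctr libraries on a log axis, by receptor class and ordered by mean within a class; symbols are litters and black bars means. The Gria2 mean stands furthest right, with litters at 42.3 to 105.6 TPM, and 15 of the members drawn have a mean under 0.1 TPM.

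Litters differed widely, in opposite directions for different receptors. Among the 37 tested members, 25 were lowest in litter 1 of the Ctr libraries. Gria2 had 303 CPM in litter 1 against 435, 624 and 543 CPM in litters 2 to 4, and Grik3 102 CPM against 198, 279 and 276 CPM. Litter 1 was thus the lowest for both. The order was the other way for Grm5, with 353, 225, 112 and 180 CPM in litters 1 to 4. Grin2c had 11.4 CPM in litter 1 and 1.14 CPM in litter 3, a 10.0-fold range, and Grm3 5.86-fold and Grin2b 7.38-fold ranges between the same litters. Marker sums moved as well. In Ctr, the OPC markers summed to 5809 CPM in litter 1 against 9868 to 13788 CPM in the others, and the astrocyte markers to 1526 CPM against 571 to 1251 CPM. The differentiating oligodendrocyte markers summed to 527, 1125, 2026 and 2700 CPM in Ctr litters 1 to 4. The part of the markers in the litter differences was not tested, and in these bulk cultures fewer cells of a type and less RNA per cell cannot be told apart. The tests below therefore compare libraries within a litter.

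**Figure D2:**
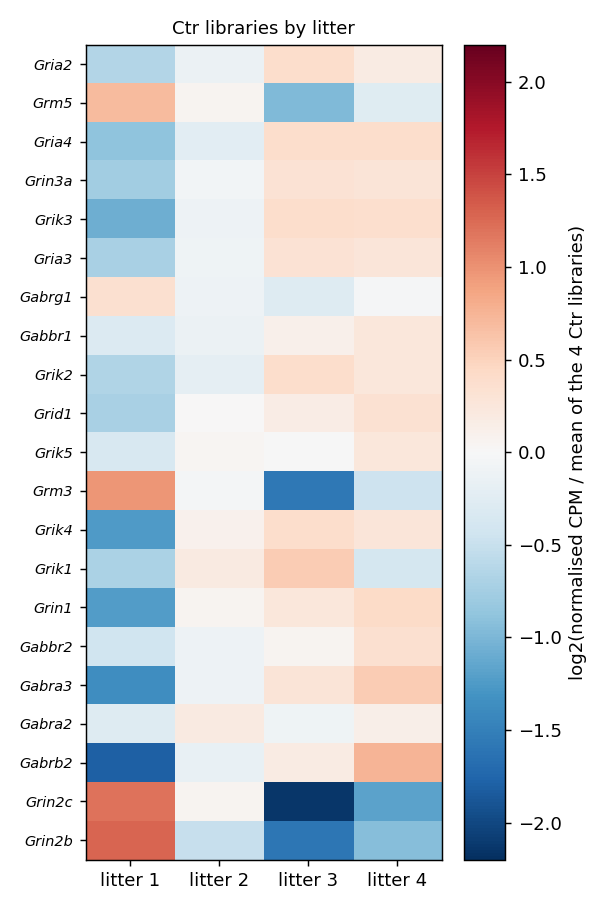
Ctr level of 19 members at 1 TPM or more, plus Grin2c and Grin2b, as log2 of normalised CPM over the mean of the 4 Ctr libraries; columns are litters and colour runs from blue (lower) to red (higher). Litter 1 is red for Grm5, Grm3, Gabrg1, Grin2c and Grin2b and blue for the other 16 genes.

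IFN-γ changed receptor transcripts of both transmitters. Of 45 members, 37 passed the filter on low counts. Among these 19 passed an adjusted p of 0.05, 6 higher and 13 lower (edgeR quasi-likelihood test with Benjamini-Hochberg adjustment over all genes, litters paired), where 31.2% of the 17919 genes tested passed, 15.9% higher and 15.3% lower. The median log2 fold change was -0.11 over the tested members and -0.01 over all tested genes. The share of all tested genes whose groups did not overlap was not counted. Among the called members, Gria1, Grin2a, Grin2c and Gabbr2 did not overlap between groups. OPC markers moved with them: 8 of 12 fell, and their summed level in litters 1 to 4 went from 5809, 9868, 13788 and 13421 CPM in Ctr to 4097, 6638, 9442 and 9483 CPM in IFNg. Of the differentiating oligodendrocyte markers, 4 of 11 tested fell, their sum being 388, 743, 988 and 961 CPM in IFNg litters 1 to 4. Of 8 astrocyte markers 3 rose and 3 fell. Of 11 tested neuronal markers 4 rose and 3 fell, their summed level being 1467 to 1634 CPM in IFNg, and 0 of 3 tested microglial markers passed in edgeR, in DESeq2 with the block or at an unadjusted p under 0.05. The part of these lists in the members' changes was not tested.

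The calls depend on the pairing. Without the replicate block, 3 members passed in edgeR (Gria1 higher, Grin2c and Gabbr2 lower) and 6 in DESeq2. The values below are from the paired fit unless stated.

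Among the AMPA subunits, the least expressed rose and an abundant one fell. Gria1 had 1.06, 1.86, 0.683 and 1.04 CPM in Ctr litters 1 to 4 and 6.41, 6.35, 2.96 and 9.09 CPM in IFNg. Every IFNg library exceeded every Ctr library. The rise was 5.14-fold, a log2 fold change of 2.36 ± 0.21 (SE; edgeR adjusted p = 4.31e-06), from 32 to 100 reads in Ctr to 85 to 237 reads in IFNg. Even so, Gria1 reached only 0.443% to 1.97% of the Gria2 TPM in IFNg.

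Gria4 had 70.7, 110, 170 and 170 CPM in Ctr and 42.0, 72.3, 98.9 and 107 CPM in IFNg. It fell in each litter, although the groups overlapped because litter 1 was low in both. The fall was 1.62-fold (log2 -0.70 ± 0.06, edgeR adjusted p = 6.15e-06). Gria2 had 303, 435, 624 and 543 CPM in Ctr and 247, 389, 487 and 504 CPM in IFNg. It was lower in 4 of 4 litters, by 1.17-fold, with wide overlap of the groups (edgeR adjusted p = 0.0173). The Gria2 call was lost without Ctr replicate 2, Ctr replicate 3 or IFNg replicate 3 (adjusted p 0.0551 to 0.0619, edgeR) and on the TPM scale (limma adjusted p = 0.636). Gria3 had a log2 fold change of -0.08 with a 95% interval of -0.24 to 0.08. The share of Gria2 reads given to protein-coding transcripts was 54.1% to 64.4%, the rest going to retained-intron transcripts and to a target of nonsense-mediated decay.

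**Figure D3:**
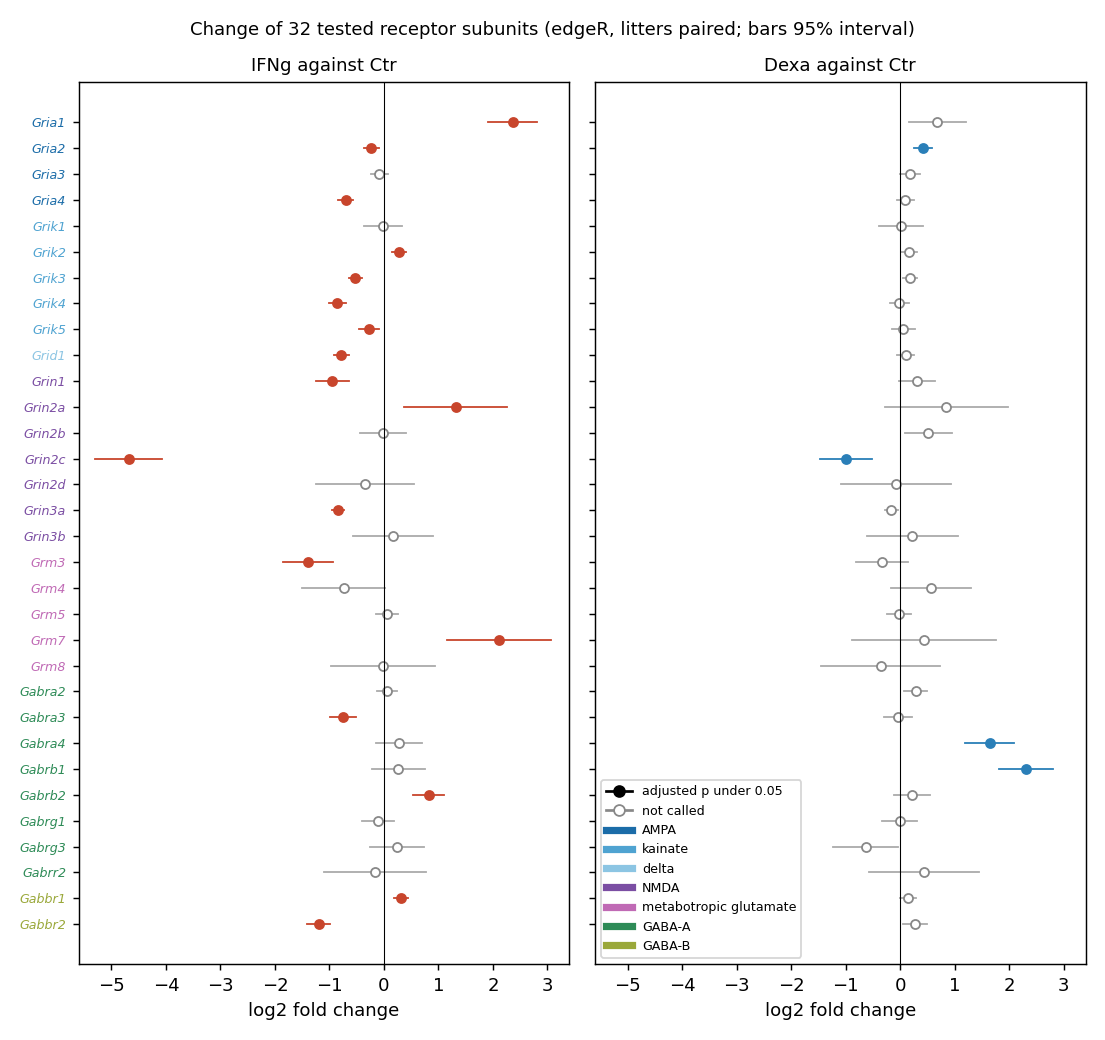
Log2 fold change of 32 tested members in IFNg against Ctr and in Dexa against Ctr, with 95% intervals from the paired edgeR fit; filled points have an adjusted p under 0.05 and label colours give the receptor class. IFNg has 18 filled points, 12 of them left of 0, and Dexa has 4, of which Grin2c alone lies left of 0.

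Of 5 tested kainate receptor genes 3 fell and 1 rose (80% called, beside 31.2% of all tested genes), and Grid1 of the delta receptors fell. Grik3 had 102, 198, 279 and 276 CPM in Ctr and 78.7, 131, 200.4 and 175 CPM in IFNg, and Grik4, a high-affinity subunit, had 11.5, 28.8, 35.4 and 32.6 CPM against 6.92, 14.2, 20.0 and 18.3 CPM. Both were lower in 4 of 4 litters. The groups overlapped through Ctr litter 1 and, for Grik3, litter 2. Grik3 fell 1.44-fold (edgeR adjusted p = 2.10e-05) and Grik4 1.81-fold (edgeR adjusted p = 2.75e-06). Grid1 had 39.5, 65.2, 72.6 and 81.4 CPM in Ctr and 23.8, 33.4, 48.5 and 45.3 CPM in IFNg. It fell in every litter, 1.72-fold (edgeR adjusted p = 2.58e-06).

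Grik2, a pore-forming kainate subunit, went the other way, with 24.9, 34.7, 52.0 and 46.9 CPM in Ctr and 29.6, 43.0, 59.0 and 60.8 CPM in IFNg. It rose in 4 of 4 litters by 1.21-fold (edgeR adjusted p = 0.00338), a step smaller than the range over litters. Grik5 had 28.1, 36.8, 35.7 and 42.5 CPM in Ctr and 27.2, 24.2, 32.8 and 33.7 CPM in IFNg. Groups overlapped, and the 1.21-fold fall (edgeR adjusted p = 0.0312) was not called without replicate 2 of any group or replicate 4 of Ctr or IFNg (adjusted p 0.0504 to 0.119), with protein-coding transcripts alone (adjusted p = 0.0841) or on the TPM scale (log2 -0.06, limma adjusted p = 0.782). Grik1 had a log2 fold change of -0.02 (95% interval -0.37 to 0.34).

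The largest change of any member was in an NMDA receptor gene. Grin2c, which encodes a subunit with low sensitivity to magnesium block, had 11.4, 5.18, 1.14 and 2.22 CPM in Ctr and 0.423, 0.252, 0.0696 and 0.0384 CPM in IFNg. Every IFNg library lay under every Ctr library, and within each group litter 1 was the highest. Reads fell from 420, 279, 55 and 68 to 14, 9, 2 and 1. The fitted fall was 25.8-fold, log2 -4.69 with a 95% interval of -5.31 to -4.06 (edgeR adjusted p = 1.85e-07). It was called in each of the 20 alternative analyses, among them the unpaired one (adjusted p = 0.0183).

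The other called NMDA subunits are Grin3a, Grin1 and Grin2a. Grin3a had 111, 179.9, 234 and 229 CPM in Ctr and 61.1, 100.4, 122 and 139 CPM in IFNg. It fell in each litter by 1.79-fold (edgeR adjusted p = 1.87e-07) and the groups overlapped only through Ctr litter 1. The obligatory Grin1 had 4.78, 11.7, 13.2 and 15.1 CPM in Ctr and 3.44, 4.64, 7.49 and 7.02 CPM in IFNg. The fall was 1.93-fold (edgeR adjusted p = 0.000308). Grin1 shares 1307 of its 9700 exon bases with the antisense gene Grin1os on the other strand, and whether the counting used strand is not given in the sources used here. Grin2a had 6, 10, 15 and 6 reads in Ctr and 21, 12, 10 and 25 in IFNg. Its CPM did not overlap between groups (0.163 to 0.310 against 0.336 to 0.959), yet the call (2.49-fold higher, edgeR adjusted p = 0.0383) was lost in 6 of 11 fits that left out 1 library (replicate 1 of any group, replicate 2 of Ctr, replicate 4 of Ctr or IFNg), at adjusted p 0.0517 to 0.143. It was also lost in DESeq2 with the block (adjusted p = 0.0520) and on the TPM scale (log2 0.12, limma adjusted p = 0.707), where IFNg lay under Ctr in litter 1 (0.0298 against 0.0512 TPM) and litter 3 (0.0635 against 0.0677 TPM). Grin2b, Grin2d and Grin3b were not called, with 95% intervals of -0.44 to 0.41, -1.24 to 0.56 and -0.57 to 0.89.

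Of the metabotropic glutamate receptors, Grm3 fell and Grm5 stayed uncalled. Grm3, an inhibitory receptor also abundant in astrocytes, had 50.2, 24.7, 8.56 and 18.6 CPM in Ctr and 14.4, 6.80, 5.40 and 8.86 CPM in IFNg. It was lower in 4 of 4 litters and the groups overlapped, since litter 3 was low in both. The fall was 2.62-fold (log2 -1.39 ± 0.20, edgeR adjusted p = 0.00116). Grm5 had 353, 225, 112 and 180 CPM in Ctr and 294, 217, 137 and 212 CPM in IFNg. It was higher in 2 litters and lower in 2, with a log2 interval of -0.14 to 0.26. Grm5 therefore took 91.9% to 93.8% of the class TPM in IFNg against 81.3% to 87.8% in Ctr, with no overlap.

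Grm7, a presynaptic receptor in neurons, had 0, 16, 7 and 8 reads in Ctr and 8, 32, 29 and 24 in IFNg. It was higher in each litter, 4.32-fold by the fit (edgeR adjusted p = 0.00298). IFNg litter 1 lay under Ctr litters 2 and 4 in CPM, so the groups overlapped. The transcript with most of its reads, Grm7-204, is annotated as a target of nonsense-mediated decay, and 130 exon bases are shared with an antisense gene. With protein-coding transcripts alone, or without Ctr replicate 2 or IFNg replicate 2, 3 or 4, Grm7 did not pass the filter, and on the log2(TPM + 0.1) scale its change was 0.87 in place of 2.11. Grm4 and Grm8 were not called, and Grm2 and Grm6 had at most 3 reads in any complete library.

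Both GABA-B receptor genes changed, in opposite directions. Gabbr2 had 14.3, 17.9, 20.1 and 24.6 CPM in Ctr and 6.98, 6.49, 8.53 and 11.7 CPM in IFNg. All IFNg values were lower than all Ctr values, a 2.30-fold fall (log2 -1.20 ± 0.09, edgeR adjusted p = 1.79e-06), which was also called without pairing (adjusted p = 0.00971). Gabbr1 had 36.8, 41.5, 49.2 and 53.7 CPM in Ctr and 46.7, 47.7, 63.2 and 68.9 CPM in IFNg. It was higher in each litter by 1.25-fold, with overlap between litters (edgeR adjusted p = 0.00169). As both products are needed for a surface GABA-B receptor, their ratio is given as a description chosen after the values were seen. The TPM of Gabbr2 over that of Gabbr1 was 0.209, 0.195, 0.183 and 0.209 in Ctr litters 1 to 4, 0.207, 0.210 and 0.220 in Dexa litters 1, 2 and 4, and 0.0783, 0.0614, 0.0695 and 0.0834 in IFNg. The ratio was nearly the same in every untreated litter, unlike the levels, and lower in all IFNg libraries.

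GABA-A subunits were called in 3 of 11 tested genes (27.3%), beside 31.2% of all tested genes. Gabrb2 had 1.71, 5.31, 6.70 and 9.98 CPM in Ctr and 3.57, 9.57, 12.85 and 14.5 CPM in IFNg. It was higher in 4 of 4 litters, 1.77-fold (edgeR adjusted p = 0.000540), although litters spread 5.83-fold in Ctr. Gabra3 had 3.97, 9.49, 12.4 and 15.0 CPM in Ctr and 2.51, 4.98, 7.10 and 10.1 CPM in IFNg, lower in 4 of 4 litters by 1.68-fold (edgeR adjusted p = 0.000255).

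Gabrg1 had 80.0, 58.4, 51.6 and 61.6 CPM in Ctr and 52.0, 63.3, 55.7 and 58.4 CPM in IFNg. It went down in litters 1 and 4 and up in litters 2 and 3, with a log2 interval of -0.40 to 0.18. Gabra2, Gabra4, Gabrb1, Gabrg3 and Gabrr2 were not called. Gabra5, Gabra6, Gabrd, Gabre, Gabrr1 and Gabrr3 did not pass the filter, at most 13 reads each in a complete library.

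**Figure D4:**
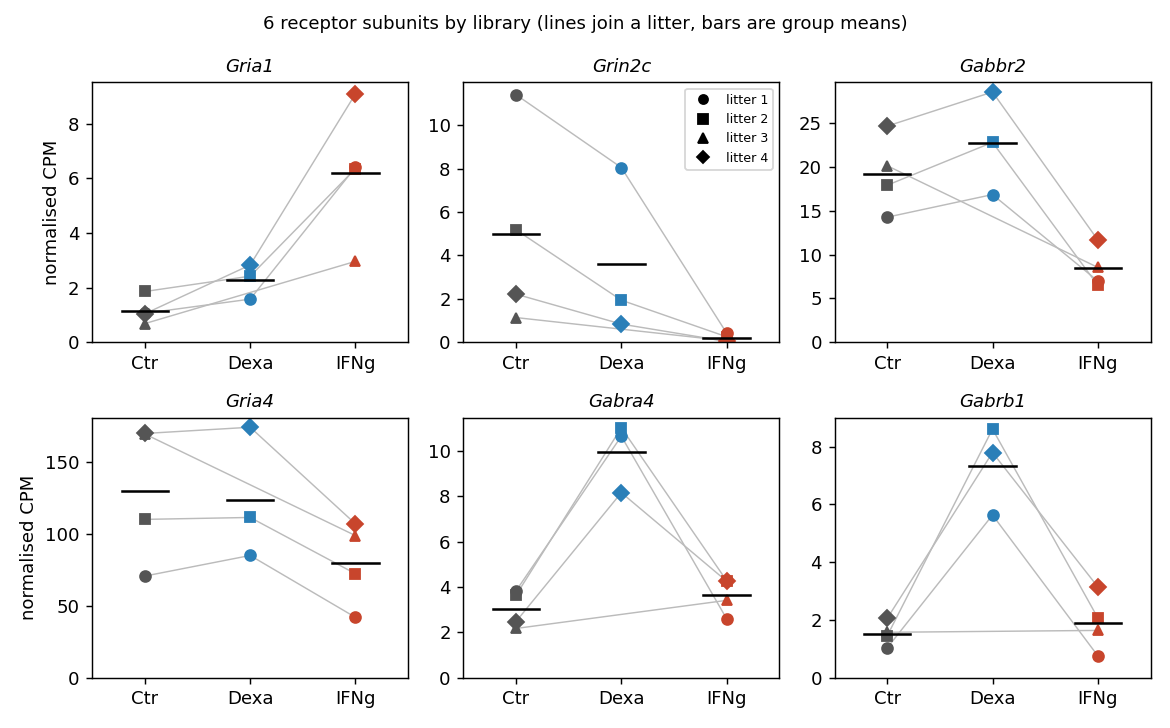
Normalised CPM by library for 6 called members, each panel with its own axis from 0; symbols and grey lines mark the litter, black bars the group mean, and litter 3 has no Dexa value because its table is short. Gria1 is higher, and Grin2c and Gabbr2 lower, in all IFNg libraries than in all Ctr libraries, and Gabra4 and Gabrb1 are highest in the 3 Dexa libraries.

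Dexamethasone raised a pair of neighbouring GABA-A receptor genes. Of the 37 tested members 4 were called, 3 higher and 1 lower, where 1.7% of all tested genes passed, 1.42% higher and 0.279% lower (edgeR, litters paired). The median log2 fold change was 0.18 over the members tested and -0.00162 over all tested genes. Of the OPC markers 1 of 12 rose and none fell, and 0 of 11 oligodendrocyte, 8 astrocyte and 3 microglial markers passed in edgeR. At an unadjusted p under 0.05 these were 1, 3 and 0 markers, in DESeq2 with the block 0, 2 and 0. Of 11 neuronal markers Snap25 rose and Gap43 fell, their summed level being 1112 to 1560 CPM in Dexa. The part of these lists in the members' changes was not tested. Of the tested members, 16 had an unadjusted p under 0.05, and the share of all tested genes at that level was not counted.

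Gabra4 had 3.83, 3.64, 2.17 and 2.48 CPM in Ctr litters 1 to 4 and 10.7, 11.03 and 8.17 CPM in Dexa litters 1, 2 and 4. Every Dexa library exceeded every Ctr and every IFNg library, the highest of which was 4.28 CPM. The rise was 3.12-fold (log2 1.64 ± 0.20, edgeR adjusted p = 0.00167), and it was called in all 20 alternatives, the unpaired edgeR fit among them (adjusted p = 0.0320). Gabrb1 had 1.03, 1.45, 1.57 and 2.05 CPM in Ctr and 5.64, 8.61 and 7.80 CPM in Dexa. Again no Dexa library overlapped with another group, and the rise was 4.96-fold (log2 2.31 ± 0.23, edgeR adjusted p = 0.000310). Without pairing its adjusted p in edgeR was 0.0962. In TPM, Gabra4 reached 1.85 ± 0.413 and Gabrb1 0.692 ± 0.140 in Dexa (n = 3), so that Gabrb1 was 1.87% to 2.98% of the GABA-A subunit total against 0.269% to 0.895% in Ctr.

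The genes lie head to head on chromosome 5 (GRCm38), with Gabra4 on the minus strand at chr5:71569749-71658308 and Gabrb1 on the plus strand at chr5:71658113-72149037. Their gene bodies share 196 bases, of which 46 are exonic in both. Most Gabrb1 reads, 89.6% to 100% per library, were given to the transcript Gabrb1-201, which starts 41624 bases past the Gabra4 start, so few came from the shared end. The next genes of the group on the same chromosome were not called. Gabra2 had a log2 fold change of 0.28 (95% interval 0.07 to 0.49, edgeR adjusted p = 0.244) and Gabrg1 of -0.01 (-0.34 to 0.31).

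**Figure D5:**
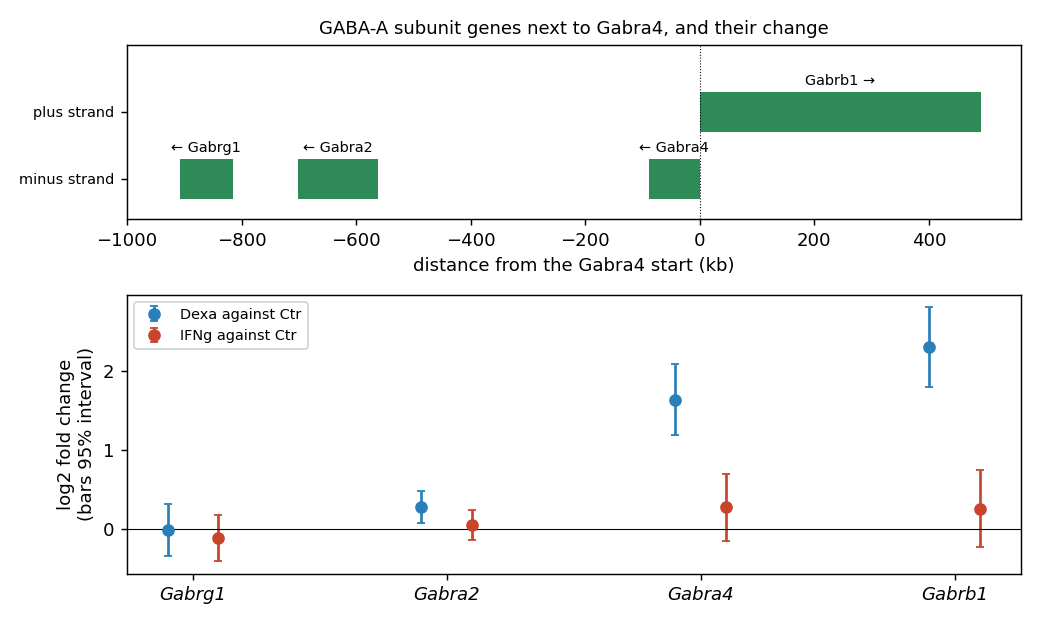
Top, the 4 GABA-A subunit genes around the Gabra4 start, in kb from that start, with arrows for the direction of transcription; bottom, their log2 fold changes with 95% intervals in Dexa and in IFNg against Ctr. Gabra4 and Gabrb1, which meet at 0, have Dexa values of 1.64 and 2.31, while Gabra2 and Gabrg1 have 0.28 and -0.01.

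Promoter sequence is shown for the pair that rose together, and for Grin2c, which had the largest fall. The windows are the 250 bases before a RefSeq transcript start (GRCm38.p6), written 5′ to 3′ on the gene's strand at chr5:71658309-71658558 (Gabra4), chr5:71699682-71699931 (Gabrb1, the start used by Gabrb1-201) and chr11:115267244-115267493 (Grin2c). Capitals mark matches to the glucocorticoid receptor-type motif ACANNNTGT, which reads the same on both strands.
Gabra4: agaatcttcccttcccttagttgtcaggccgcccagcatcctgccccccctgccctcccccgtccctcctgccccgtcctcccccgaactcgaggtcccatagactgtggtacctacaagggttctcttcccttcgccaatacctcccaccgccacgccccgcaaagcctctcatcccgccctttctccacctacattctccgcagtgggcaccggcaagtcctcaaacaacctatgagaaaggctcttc
Gabrb1: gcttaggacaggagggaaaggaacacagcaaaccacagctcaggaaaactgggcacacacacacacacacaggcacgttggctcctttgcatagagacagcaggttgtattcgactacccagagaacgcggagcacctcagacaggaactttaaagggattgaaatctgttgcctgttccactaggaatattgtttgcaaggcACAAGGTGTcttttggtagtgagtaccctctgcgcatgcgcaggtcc
Grin2c: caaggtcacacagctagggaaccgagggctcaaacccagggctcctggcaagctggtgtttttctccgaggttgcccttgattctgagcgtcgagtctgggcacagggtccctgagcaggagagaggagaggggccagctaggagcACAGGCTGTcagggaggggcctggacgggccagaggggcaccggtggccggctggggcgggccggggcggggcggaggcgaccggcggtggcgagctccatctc

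The motif ACANNNTGT stood 47 bases before the Gabrb1-201 start and 104 bases before the Grin2c start, and was not in the Gabra4 window. Gabrb1 has another RefSeq start, near that of Gabra4. Its window at chr5:71657671-71657920 is not printed and did not hold the motif. Of all 32851 RefSeq promoter windows (300 bases, with 50 past the start) 6.85% held it, against 4 of the 37 windows found for 30 members. The STAT-type motif TTCNNNGAA, also its own reverse complement, was in 8.30% of all windows and in 3 of the members' windows (Gabra6, Gabrb1 and Gabrg1). The IRF-type motif GAAANNGAA, searched with its reverse complement TTCNNTTTC, was in 8.56% of all windows and in 4 of the members' (Gabrg1, Gabrr1, Gabrr3 and Grm8). None of these matches is known from these data to be bound. The Grin2c window belongs to the longer annotated transcript, while 45.6% to 100% of Grin2c reads per library were given to Grin2c-201, which starts within the gene.

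The other dexamethasone calls were Gria2 and Grin2c. Gria2 had 438, 564 and 721 CPM in Dexa litters 1, 2 and 4, against 303, 435 and 543 CPM in the same Ctr litters. It was higher in 3 of 3 litters, by 1.34-fold (edgeR adjusted p = 0.0121), and the groups overlapped. The call was lost without replicate 1 or 2 of Ctr or Dexa, or without Ctr replicate 4 (adjusted p 0.0595 to 0.115), and on the TPM scale (limma adjusted p = 0.295). Grin2c had 8.05, 1.94 and 0.838 CPM in Dexa against 11.4, 5.18 and 2.22 CPM in the same Ctr litters. It was lower in 3 of 3 litters by 1.996-fold (edgeR adjusted p = 0.0426), a call lost in 8 of 11 fits without 1 library (all but those without Dexa replicate 1, IFNg replicate 1 or IFNg replicate 4; adjusted p 0.0567 to 0.406). It was also lost with a stricter filter (adjusted p = 0.0575), with protein-coding transcripts alone (adjusted p = 0.0749) and on the TPM scale (limma adjusted p = 0.897). Grin2c is whole in the short Dexa table, and over the 12 libraries its log2 fold change was -0.95 (edgeR adjusted p = 0.0295). Its TPM in litter 3 was 0.177 in Ctr, 0.114 in Dexa and 0.0104 in IFNg.

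Other members did not pass. Gria1 was 1.61-fold higher with a log2 interval of 0.16 to 1.21 (adjusted p = 0.271). Gabbr2 had an interval of 0.05 to 0.48 and Grm3 of -0.81 to 0.15. The kainate, delta, metabotropic and GABA-B classes had 0 calls in edgeR and in DESeq2 with the block, and 2, 0, 0 and 2 genes with an unadjusted p under 0.05.

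The treatments were then compared with each other, which tests whether their effects differ. Between IFNg and Dexa 24 of 37 members were called, 4 higher and 20 lower in IFNg, where 33.9% of all tested genes passed, 17.2% higher and 16.8% lower (edgeR, litters paired). This comparison shares its Dexa and IFNg libraries with those above. Gabrb1 was 4.13-fold lower in IFNg than in Dexa (edgeR adjusted p = 3.48e-05) and Gabra4 2.58-fold lower (adjusted p = 0.000392), and neither overlapped between the groups. Gabbr2 was 2.76-fold lower (adjusted p = 8.54e-07) and Grin2c 12.9-fold lower (adjusted p = 3.48e-06). The members higher in IFNg were Gria1 (3.20-fold, adjusted p = 0.000132), Grm7, Gabrb2 and Gabrg3. Grm4, which was not called against Ctr, was 2.46-fold lower in IFNg than in Dexa (edgeR adjusted p = 0.0190), with at most 41 reads in any complete library. Gria3, abundant and uncalled against Ctr, was 1.20-fold lower in IFNg than in Dexa (edgeR adjusted p = 0.0259), in 2 of 3 litters. It was not called without replicate 1 or 2 of Dexa or IFNg or without Ctr replicate 2. On the TPM scale its log2 fold change was -0.05 (limma adjusted p = 0.840). In the paired fit Grin2c was thus lower than Ctr under both treatments, and lower in IFNg than in Dexa.

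Genes that act with the receptors were counted from fixed lists. Beside these counts, 31.2% of all tested genes were called in IFNg against Ctr, 15.9% higher and 15.3% lower. Of 14 tested auxiliary subunits and pentraxins, which set the trafficking and gating of glutamate receptors, 6 rose and 5 fell in IFNg, with a median log2 fold change of 0.27 beside -0.01 over all genes. Named by smallest p, Nptxr, Cacng4, Shisa9 and Cacng7 are all among the 5 that fell (log2 -0.90, -0.76, -1.80 and -0.44, edgeR adjusted p at most 0.000640). The 6 that rose are not named. Of 14 postsynaptic scaffold genes 1 rose and 3 fell (median -0.06), among them Homer2, which tethers Grm5, at -0.70 (edgeR adjusted p = 1.81e-06). Of 10 GABA receptor partners 2 rose and 4 fell (median -0.17), with Kctd12, an auxiliary subunit of GABA-B receptors, at 0.75 (edgeR adjusted p = 2.62e-05).

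Of 10 tested transporters and enzymes of glutamate and GABA, 2 rose and 5 fell in IFNg (median -0.22), again beside 31.2% of all tested genes. The GABA transporter Slc6a11 fell by 1.70 on the log2 scale, and the cystine-glutamate exchanger Slc7a11 rose by 1.55 (edgeR adjusted p at most 1.40e-05). Of the RNA editing genes, Adar rose by 1.18 (edgeR adjusted p = 3.81e-09), while Adarb1, which edits the Gria2 transcript, fell by 0.30 and Adarb2 fell by 1.18. Dexa gave 1 call among the auxiliary genes (Nptx2, 1.14, edgeR adjusted p = 0.0174) and 1 among transporters and enzymes (Slc7a11, 0.71, adjusted p = 0.0282). In that comparison 1.7% of all tested genes were called. Scaffolds, GABA receptor partners and editing genes had 0 calls in edgeR and in DESeq2 with the block, and 4, 1 and 1 genes with an unadjusted p under 0.05. Editing itself cannot be read from these tables.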

How the data were processed

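Stranded total RNA libraries of 4 Ctr, 4 Dexa and 4 IFNg cultures were analysed. Per the labels the authors used STAR, Salmon 0.8.2 and DESeq2 with mm10/GRCm38. The authors deposited, for each transcript, an estimated count and a TPM value from Salmon. The transcript identifiers matched Ensembl 96 (GENCODE M21). The authors' own DESeq2 tables of fold changes and p-values were not used. Whether counts used strand was not given in the sources used here.

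Estimated counts were summed per gene and rounded. Dexa replicate 3 holds 47855 of 141862 transcripts and was left out, except for genes it lists whole. The filter kept 17919 genes, those reaching 10 counts in 4 or more libraries. edgeR 4.0.16 (R 4.3.3; TMM, robust quasi-likelihood F test, group plus replicate block, Benjamini-Hochberg adjustment over all genes tested, threshold 0.05) gave fold changes, with the SE taken from F and 95% intervals from the t distribution. CPM were scaled by TMM. The block follows the labels' replicate numbers: deviations from group means correlated at 0.404 to 0.721 between libraries of the same number and at -0.613 to 0.493 otherwise. DESeq2 1.42.0, limma 3.58.1 on log2(TPM + 0.1), other filters and leaving out each library were alternatives.

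Counts for IFNg against Ctr over 17919 genes were simulated from the edgeR fit itself. Far fewer genes were changed there than the 31.2% called in the data. In these counts edgeR recovered 56% of 1.5-fold and 92% of 3-fold changes, and 7.60% of its calls were false. Such rates need not hold for the calls reported here. Members, companion lists and markers were chosen with earlier results of these data known. All members enter the counts, and 5 are not reported here one by one. Values per library are given for members called in IFNg or Dexa against Ctr and for the highest member of each class in Ctr TPM, and companion genes are named by smallest p, at most 4 a list. Replicates are separate litters. With 10 reads counting error is large, and intervals do not cover PCR copies. Dexa and IFNg were compared with the same Ctr libraries.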

Additional observations from a re-analysis of the deposited data

Results flagged for a closer look

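Among 44 groups of 4 libraries (22 members, Ctr and IFNg), 1 had a highest or lowest library whose gap to its neighbour, as a share of the group's range, was past Dixon's 95% limit for 4 values (0.851 for Grm7 in IFNg). Chance alone gives about 1 in 20 such groups. Grm7 in IFNg was 0.242 CPM in litter 1 against 0.895 to 1.01 CPM in the other IFNg libraries. The gene rests on few reads.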

How the results depend on the processing

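The paired and unpaired fits differed most. Without the replicate block, edgeR called 3 members in IFNg against Ctr, 1 in Dexa against Ctr and 5 in IFNg against Dexa, and DESeq2 called 6, 2 and 7, in place of 19, 4 and 24. With limma on log2(TPM + 0.1), 2 members were called in Dexa against Ctr and 14 in IFNg against Dexa. That scale moved the median of all genes in IFNg against Ctr by 0.17 (log2) and the share of higher calls among all genes from 50.9% to 80.4%. Leaving out 1 library gave 14 to 19 members in IFNg against Ctr, 2 to 6 in Dexa against Ctr (2 without Ctr replicate 1, 2 or 4 or Dexa replicate 2) and 15 to 24 in IFNg against Dexa (15 without Dexa replicate 2). Leaving out all libraries numbered 1, chosen after seeing the data, gave 18, 3 and 21. No member called in IFNg or Dexa against Ctr changed direction in any alternative that tested it. Direction was not checked in this way for the calls in IFNg against Dexa. Gria1, Grin2c and Gabbr2 in IFNg and Gabra4 in Dexa were called in every alternative that tested them. DESeq2 with the block, its size factors in edgeR, other count filters and protein-coding transcripts kept each count within 1.5 times. The 12-library fit tested only 10 members and called 1 in Dexa against Ctr and 7 in IFNg against Dexa, as many as the 11-library fit called among those 10. In Ctr, 19 rather than 21 members reached 1 TPM with protein-coding transcripts. Across all genes the unpaired edgeR fit called 1518 in IFNg and 23 in Dexa against Ctr, in place of 5582 and 304. The cause of the differences with the TPM scale was not tested.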
